A study of Mus musculus with 16 samples.

Results

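The Hox genes were followed through 9 chromatin maps of mouse macrophages: 38 genes in 4 clusters, taken from 49943 genes annotated on the chromosomes used. A peak was counted for a Hox gene when it overlapped the gene's RefSeq bounds on build GRCm38, or the 5 kb on either side, by at least 1 base. After overlapping windows were merged, they spanned 444.8 kb, of which 105422 bases belong to HoxA on chromosome 6, 117495 to HoxB on chromosome 11, 119716 to HoxC on chromosome 15 and 102210 to HoxD on chromosome 2. Neighbouring windows overlap and 1 peak is often counted for several genes. The bounds of Hoxa3, Hoxb3, Hoxd3 and Hoxc4 are long, and those of Hoxa3, Hoxb3 and Hoxd3 run over neighbouring Hox genes.

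Chromatin immunoprecipitation with sequencing (ChIP-seq) had been done on primary macrophages grown from the femurs and tibias of adult C57BL/6 mice, whose marrow was kept for 5 days with M-CSF, which drives macrophage growth. EZH2 was mapped in untreated wild-type cells and in wild-type cells primed with LPS and then given nigericin, an ionophore that activates the NLRP3 inflammasome, so the effects of LPS and of nigericin cannot be told apart. H3K27me3, H3K27ac and p53 were mapped in untreated wild-type cells, and SIRT1 in untreated cells of the Ezh2 knockout and the p53 knockout, each with wild-type cells of its own. The series has 16 samples, 9 immunoprecipitations and 7 inputs, with 1 library per group. The labels do not say whether a knockout is limited to 1 cell type, nor how many mice gave the cells. With 1 library in a group no difference between conditions has a replicate check, and none is tested here. All 8 macrophage marker genes (Csf1r, Adgre1, Itgam, Cd68, Spi1, Mrc1, Fcgr1 and Lyz2) had an H3K27ac peak and none had an H3K27me3 peak. Among markers of other cells, H3K27ac was found at 0 of 6 neutrophil genes, 0 of 4 stromal genes and 1 of 3 erythroid genes (Klf1, 3.77-fold). The lymphocyte gene Ms4a1 also had H3K27ac (6.06-fold).

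Hox genes encode homeodomain transcription factors that give cells their position along the body axis. Within a cluster they lie in the order in which they are used, from the anterior genes with low paralog numbers to the posterior genes with high ones. Where a cluster is silent, Polycomb repressive complex 2, with EZH2 as its methyltransferase, places H3K27me3 over it, whereas H3K27ac marks active promoters and enhancers on the same residue. In blood formation HoxA and HoxB genes are known for their use in stem and progenitor cells, and they are turned down as cells mature.

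In these macrophages H3K27me3 lay over nearly all of the Hox clusters. A peak of this mark was found at 37 of the 38 genes, against 29.2% of all annotated genes, and 396.3 of the 444.8 kb (89.1%) were covered. The only gene without it was Hoxb4. EZH2 peaks were found at 34 genes in untreated cells, against 11.6% of all genes, and at 33 genes after LPS and nigericin, against 7.06%. H3K27ac was found at 2 genes, Hoxb3 and Hoxb4, against 25.5% of all genes.

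The sequences shown first are those at the 1 place where the marks of the clusters part, together with their counterparts in the other clusters. Hoxb4 is 1 of 4 genes of paralog group 4, and its promoter (here 250 bases before to 50 after an annotated start) was the 1 Hox promoter under H3K27ac. The promoters of its paralogs Hoxc4 and Hoxd4 lay under H3K27me3, and that of Hoxc4 also under an untreated EZH2 peak (2.44-fold). Hoxd13, the most posterior HoxD gene, had a CG-rich promoter under both H3K27me3 and EZH2. No promoter of Hoxa4 was matched. The Hoxc4 promoter lies inside that gene's RefSeq bounds, which begin at chr15:103018097, whereas those of Hoxb4 and Hoxd4 lie at the start of the bounds. The sequences are from RefSeq on GRCm38.p6, written 5′ to 3′ on the strand of the gene, with each CG in capitals.
Hoxb4 (chr11:96318017-96318316, + strand): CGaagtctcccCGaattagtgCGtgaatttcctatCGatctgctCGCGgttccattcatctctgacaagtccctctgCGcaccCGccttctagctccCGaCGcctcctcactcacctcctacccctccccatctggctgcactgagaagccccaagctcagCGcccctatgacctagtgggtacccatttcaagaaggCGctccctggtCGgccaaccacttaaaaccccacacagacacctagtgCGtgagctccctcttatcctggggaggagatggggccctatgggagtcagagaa
Hoxc4 (chr15:103034145-103034444, + strand): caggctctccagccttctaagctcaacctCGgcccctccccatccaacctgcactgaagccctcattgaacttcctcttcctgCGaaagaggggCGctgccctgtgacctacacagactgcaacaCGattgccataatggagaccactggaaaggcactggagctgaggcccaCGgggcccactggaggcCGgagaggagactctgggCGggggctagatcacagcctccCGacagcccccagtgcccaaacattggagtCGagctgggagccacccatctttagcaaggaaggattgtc
Hoxd4 (chr2:74721728-74722027, + strand): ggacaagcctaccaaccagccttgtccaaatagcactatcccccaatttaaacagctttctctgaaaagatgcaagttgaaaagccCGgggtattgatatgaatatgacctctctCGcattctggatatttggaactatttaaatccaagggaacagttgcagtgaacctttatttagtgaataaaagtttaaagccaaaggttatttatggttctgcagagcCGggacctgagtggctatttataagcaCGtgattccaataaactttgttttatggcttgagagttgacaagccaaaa
Hoxd13 (chr2:74667975-74668274, + strand): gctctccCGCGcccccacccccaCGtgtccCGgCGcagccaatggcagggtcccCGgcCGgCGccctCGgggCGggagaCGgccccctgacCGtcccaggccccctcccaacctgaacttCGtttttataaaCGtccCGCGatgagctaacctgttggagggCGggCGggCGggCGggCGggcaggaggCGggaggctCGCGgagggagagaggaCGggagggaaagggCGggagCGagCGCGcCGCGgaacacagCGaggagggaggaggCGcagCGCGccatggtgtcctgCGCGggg
The Hoxb4 promoter holds 14 CG, that of Hoxc4 holds 9, that of Hoxd4 holds 4 and that of Hoxd13 holds 37.

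The microRNAs inside the clusters lie among these genes and show the same contrast. Mir10a lies beside Hoxb4 in HoxB and Mir10b beside Hoxd4 in HoxD, and their main products share the seed (bases 2 to 8, in capitals) that pairs with target messengers. They differ at position 12, counted from the 5′ end, by U12A. The Mir196 genes lie beside the group 9 and 10 genes of HoxA, HoxB and HoxC and share another seed, and the 196a and 196b products differ by A12C. The mature sequences are from RefSeq.
mmu-miR-10a-5p: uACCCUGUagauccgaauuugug
mmu-miR-10b-5p: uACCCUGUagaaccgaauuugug
mmu-miR-196a-5p: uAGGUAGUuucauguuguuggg
mmu-miR-196b-5p: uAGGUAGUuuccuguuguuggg
Mir10b lay under an H3K27me3 peak of 10.6-fold, whereas Mir10a had none, the nearest being 7302 bases away. An H3K27ac peak of 2.68-fold began 435 bases from Mir10a. All 3 Mir196 genes lay under H3K27me3, with 12.2-fold at Mir196b, 12.8-fold at Mir196a-1 and 11.4-fold at Mir196a-2. EZH2 in untreated cells covered Mir196b (6.26-fold) and Mir196a-2 (3.47-fold), and the nearest EZH2 peak to Mir196a-1 was 2167 bases away.

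**Figure D1:**
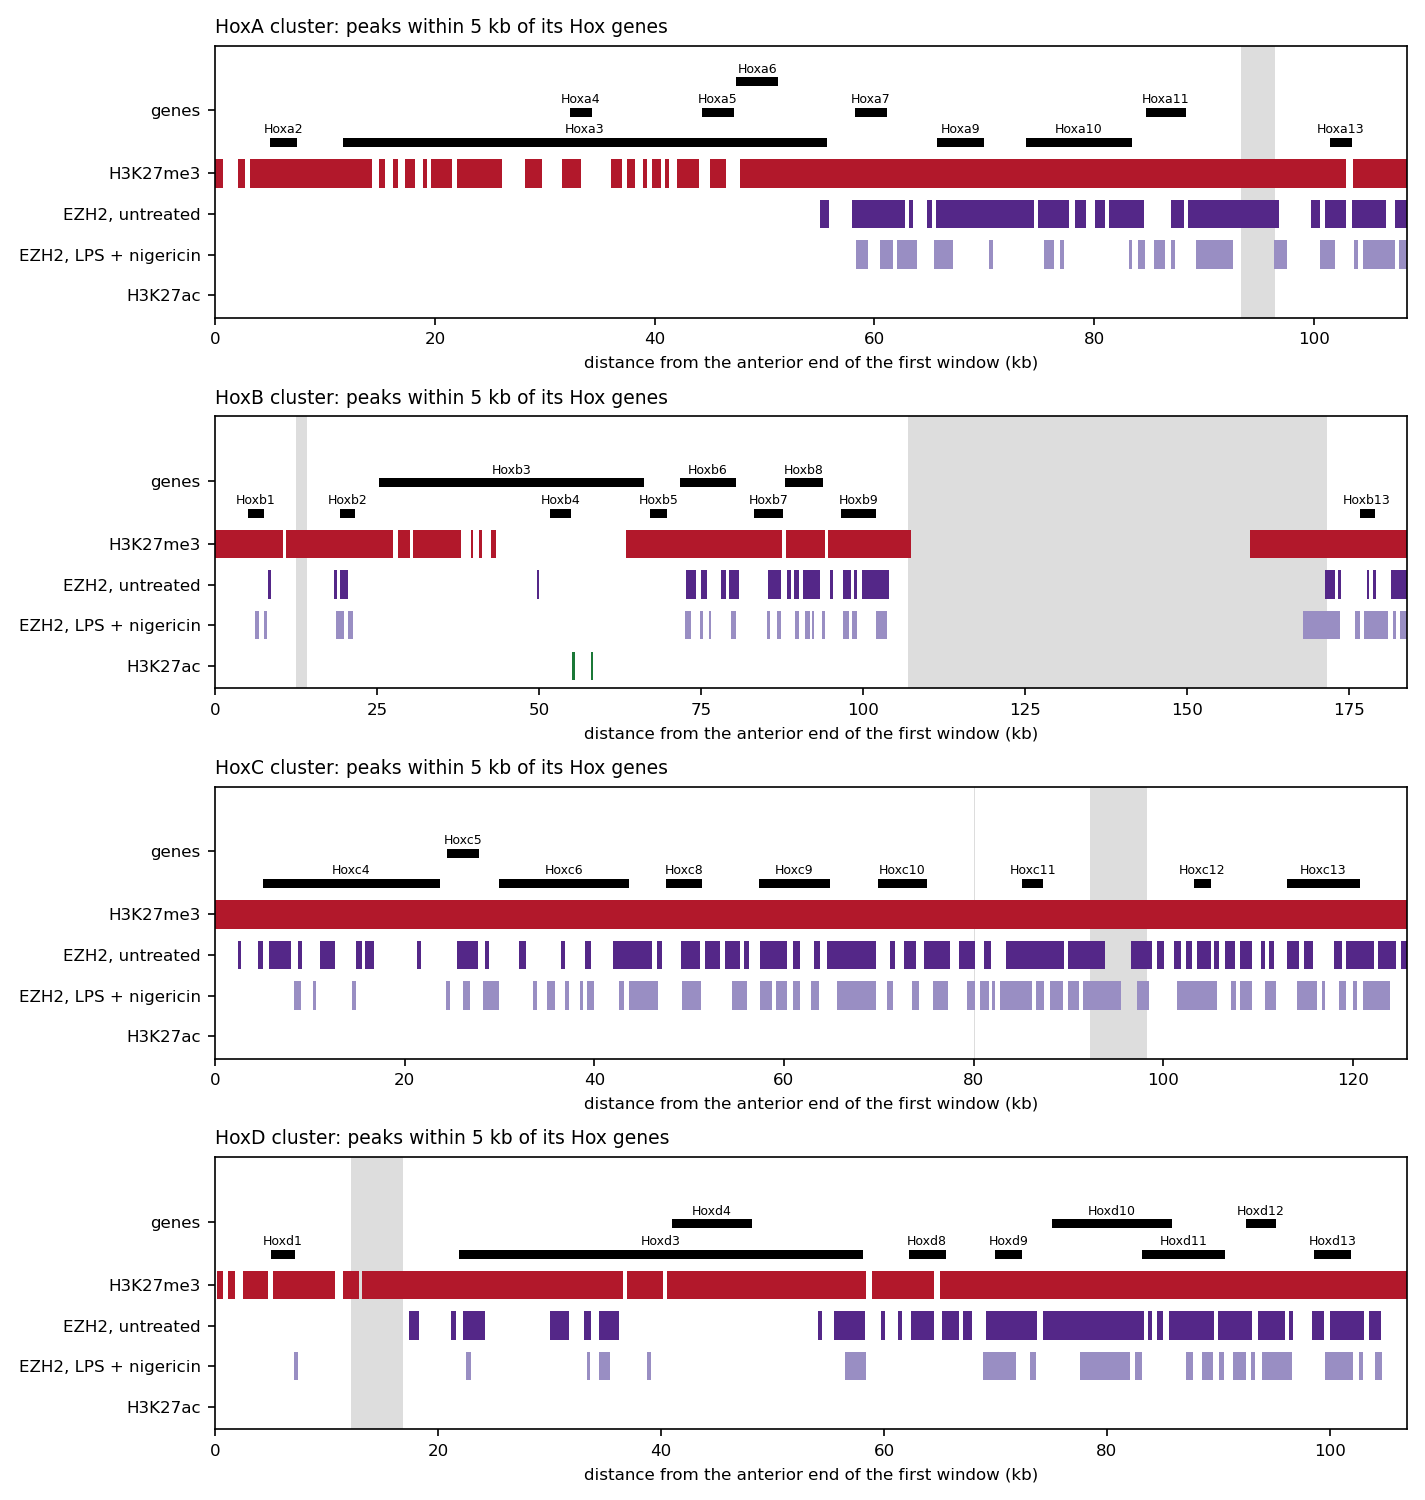
Peaks over the 4 Hox clusters, with distance in kb from the anterior end of the first window on the x axis, genes as black bars at the top, and each row of coloured bars the peaks of 1 library that touch a window. Grey stretches lie outside the windows. H3K27me3 is unbroken over HoxC, has its longest break (20.1 kb) around Hoxb4 where both H3K27ac peaks lie, and the EZH2 rows are empty over the anterior part of HoxA.

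Folds are the authors' values, fragments at a peak's summit over the local background. A fold belongs to the summit and not to every gene that a long peak covers. The fragments behind it could be recovered, and are given below as a measure of support. For H3K27me3 the Hox peaks rested on 11 to 71 fragments and had a mean fold of 6.86, against 3.86 over the whole list. Their median length was 1988 bases against 727.

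HoxA began with an anterior stretch in which H3K27me3 was broken up. Hoxa2, which patterns the hindbrain and its neural crest, lay wholly under a peak of 8.91-fold with 41 fragments. Between that peak and the next long one, 33.4 kb across Hoxa3, Hoxa4 and Hoxa5 held 15 short peaks of 336 to 4072 bases, with folds of 2.63 to 5.44 and 11 to 25 fragments. H3K27me3 covered 52.8% of Hoxa4 and 50.2% of Hoxa5. The longest break in HoxA was 2723 bases. The mark was thus present over these genes in short peaks, all with lower folds than the peak over Hoxa2 and the long peaks from Hoxa6 on.

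From Hoxa6 to Hoxa13 the mark was nearly continuous. A single peak of 55139 bases (chr6:52205156-52260294, 12.2-fold, 55 fragments) reached from Hoxa6 into Hoxa13, and the next, 714 bases further on, ran 37001 bases with 13.1-fold. Hoxa7, Hoxa9, Hoxa10 and Hoxa11 were covered whole, and Hoxa13, which acts in limb and urogenital development, to 71.1%. The summit of the 55-kb peak lay inside Hoxa10.

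EZH2 in untreated cells followed the posterior part of HoxA. No EZH2 peak lay within 5 kb of Hoxa2, Hoxa4 or Hoxa5 in either EZH2 library. A peak of 2.50-fold (20 fragments) lay near Hoxa6 and inside the long bounds of Hoxa3, and from Hoxa7 on every gene was touched. EZH2 covered 100% of Hoxa7 (3.14-fold, 37 fragments) and 100% of Hoxa9 (6.26-fold, 38 fragments). Hoxa9, a known driver of blood progenitor growth, shared its 8886-base peak with Hoxa10, which had a further peak of 5.67-fold. At Hoxa13 the highest fold was 5.57, with 24 fragments. The posterior HoxA genes thus held both EZH2 and the long H3K27me3 peaks, whereas Hoxa2, Hoxa4 and Hoxa5 had H3K27me3 without a listed EZH2 peak.

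HoxB was the cluster with the lowest H3K27me3 coverage, 77.4% against 83.3% in HoxA, 95.8% in HoxD and 100% in HoxC. At its anterior end Hoxb1 was under a peak of 12.2-fold with 54 fragments and Hoxb2 under a peak of 9.47-fold with 53. Hoxb3 was covered to 38.6%, and Hoxb4 not at all. From Hoxb5 on the mark resumed: Hoxb5 and Hoxb6 were covered whole, Hoxb7 to 95.5%, Hoxb8 to 96.7% and Hoxb9 whole. Hoxb13, which stands apart from the rest of the cluster and is known from the prostate, lay under a peak of 51402 bases and 15.6-fold (62 fragments), the highest H3K27me3 fold of any Hox peak and rank 7 in its list.

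The break around Hoxb4 was 20065 bases long (chr11:96309864-96329928) and took in all of Hoxb4, part of Hoxb3 and Mir10a. It held both H3K27ac peaks of the Hox clusters. The first was 3.37-fold (chr11:96314910-96315277) and the other, over the Hoxb4 promoter shown above, 2.68-fold (chr11:96317709-96318260). Each rested on 26 fragments, and their −log10 q was 5.91 and 3.95. Both were shorter than the median H3K27ac peak of 789 bases (368 and 552 bases). The fold of the first was near the list's median of 3.33, and that of the peak over the promoter was below it. The only EZH2 peak in the break was 2.49-fold with 10 fragments and a −log10 q of 0.037, in untreated cells. After LPS and nigericin no EZH2 peak was listed there. Hoxb4, a homeodomain factor known for expanding blood stem cells, was thus without listed H3K27me3 and with weak H3K27ac in this library.

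**Figure D2:**
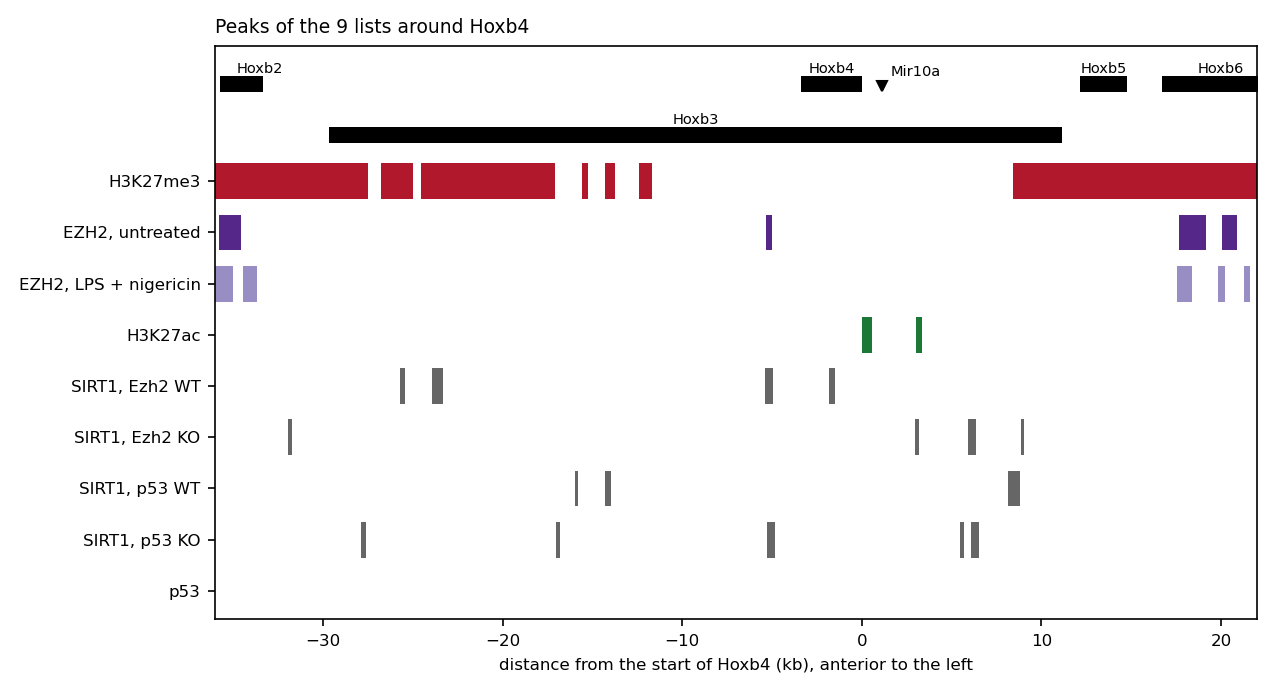
Peaks of all 9 lists around Hoxb4, with distance in kb from its RefSeq start on the x axis and the anterior side at the left; black bars are genes, the triangle is Mir10a and each coloured or grey bar is a peak. H3K27me3 is absent over 20.1 kb, where H3K27ac has 2 peaks, untreated EZH2 has 1 and p53 has none.

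EZH2 in HoxB lay on Hoxb2 and on the genes from Hoxb6 to Hoxb13. In untreated cells it covered 49.98% of Hoxb2 (3.90-fold, 30 fragments). It touched neither Hoxb1, Hoxb4 nor Hoxb5, and only 0.779% of Hoxb3. It covered 48.7% of Hoxb6, 42.6% of Hoxb7, 68.2% of Hoxb8 and 73.3% of Hoxb9. The highest fold of the cluster was 4.51 at Hoxb8 with 20 fragments, followed by 4.03 at Hoxb9 with 31. At Hoxb13, where H3K27me3 was highest, EZH2 reached 3.87 with 19 fragments and covered 28.3%. The order of H3K27me3 folds was therefore not the order of untreated EZH2 folds within HoxB. After LPS and nigericin, by contrast, the highest EZH2 fold touching a HoxB gene was at Hoxb13. It was 3.95 with 16 fragments, and 70.4% of the gene was covered.

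HoxC was covered by 1 H3K27me3 peak from end to end. It spanned 140456 bases (chr15:102904914-103045369), with 11.4-fold and 71 fragments at its summit, and was the longest of the 88037 peaks in the list. The second longest had 85849 bases. All 9 HoxC genes, from Hoxc4 to Hoxc13, and the non-coding gene Hotair lay inside it. Among the 20 longest H3K27me3 peaks were 4 that touch Hox windows, 1 for each cluster: after HoxC, that of HoxD ranked 6, that of HoxA 11 and that of HoxB 19. Each of these 4 peaks touched posterior genes of its cluster.

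EZH2 over all listed peaks was densest in HoxC too, with 46 peaks in untreated cells that covered 52.4% of the windows. That order turned with a −log10 q of at least 5, where the share was 6.10% in HoxC, 6.77% in HoxB, 20.6% in HoxA and 22.4% in HoxD. The highest lay inside Hoxc9, a patterning gene of the trunk (chr15:102981550-102984346, 8.55-fold, 56 fragments), and was second in fold of the 9771 peaks in its list. Its summit was 228 bases from the summit of the 140-kb H3K27me3 peak, and the nigericin EZH2 peak there (3.98-fold, 26 fragments) had its summit 115 bases from it. The next peak by fold was at Hoxc13, a hair and nail gene, with 6.56-fold and 27 fragments. Hoxc10 had 4.31 (16 fragments), while Hoxc11 and Hoxc12 were covered to 100% and 80.6% at folds of only 2.25 and 2.52. The central HoxC genes all had EZH2 as well, from 2.78 at Hoxc5 to 3.58 at Hoxc4, where Hoxa4, Hoxa5 and Hoxa6 were not touched.

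HoxD was covered to 95.8% by H3K27me3, in 10 peaks, with no break longer than 699 bases. The longest peak, 66285 bases (chr2:74638840-74705124, 13.6-fold, 54 fragments), ran over Hoxd13, Hoxd12, Hoxd11, Hoxd10 and Hoxd9 into Hoxd8. Its summit lay in Hoxd11. Hoxd4 lay under a peak of 10.6-fold with 42 fragments, and Hoxd1, the anterior end, under 6.67-fold with 26. Hoxd1 had the lowest fold of the HoxD genes, and 89.5% of it was covered. The fall towards it was not even: the peaks between the longest one and that of Hoxd1 had 9.94, 10.6, 8.89, 10.4 and 4.45-fold in turn.

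EZH2 in HoxD was again posterior. In untreated cells it covered 100% of Hoxd9 (5.25-fold, 48 fragments), 87.2% of Hoxd10 (5.03-fold, 25 fragments) and 85.5% of Hoxd13 (5.52-fold, 39 fragments), genes of the limb and genital program. The highest fold was at Hoxd8, 5.62 with 20 fragments. Hoxd4 was not touched, though a peak of 3.20-fold lay within 5 kb of it, and Hoxd1 had none within 5 kb. Hoxd3, whose bounds span Hoxd4, had 4.04 with 18 fragments.

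Set in order of paralog number, EZH2 coverage was higher at the posterior genes. Its peaks touched 4 of 7 anterior genes (paralogs 1 to 3), 9 of 15 central genes (4 to 8) and 16 of 16 posterior genes (9 to 13) in untreated cells. The median share of gene bounds covered was 0.779%, 33.1% and 77.3% in the same order. HoxC has no anterior gene, so the anterior group comes from HoxA, HoxB and HoxD only. Its shares ranged from 0 to 49.98%, and its median is the value of Hoxb3, whose long bounds run over Hoxb4. After LPS and nigericin 4 of 7, 8 of 15 and 16 of 16 were touched, with medians of 6.10%, 9.01% and 46.1%. H3K27me3 touched 7 of 7, 14 of 15 and 16 of 16, and its median was 98.1% or more in each. As a description over 38 genes that share peaks and libraries, Spearman's rho between paralog number and share covered was 0.37 for H3K27me3, 0.69 for untreated EZH2 and 0.63 for EZH2 after nigericin. Within clusters, rho for untreated EZH2 was 0.65 in HoxA, 0.51 in HoxB, 0.50 in HoxC and 0.70 in HoxD. For H3K27me3 it was 0.34 in HoxA, 0.11 in HoxB and 0.67 in HoxD, where it was close to that of EZH2. HoxC has no such value, since all its genes were covered to 100%. Many genes of the other clusters also stood at 100%, which limits what rho can show for H3K27me3.

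**Figure D3:**
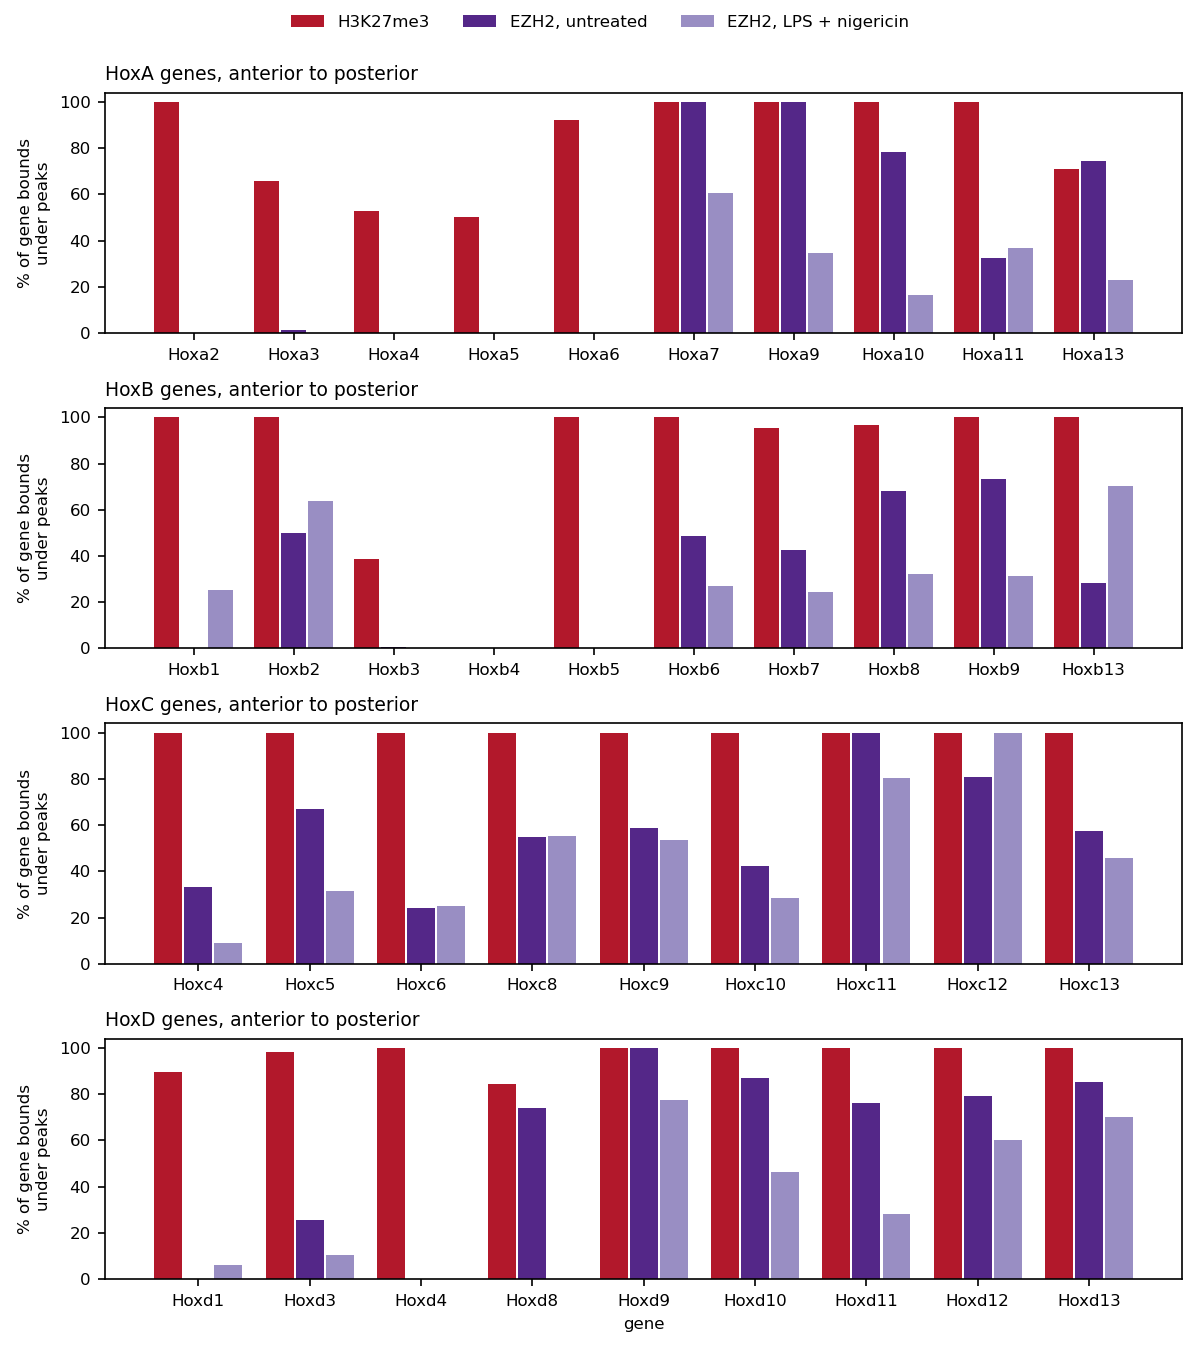
Share of each Hox gene's bounds under peaks (y axis, percent) for the 38 genes in anterior to posterior order by cluster, with 1 bar per library and no replicates. H3K27me3 is at 0 only for Hoxb4, while untreated EZH2 has medians of 0.779% in anterior, 33.1% in central and 77.3% in posterior genes. HoxC has no anterior gene.

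EZH2 and its mark were set side by side peak by peak. Of the 106 untreated EZH2 peaks in the Hox windows, 105 overlapped H3K27me3 (99.1%, exact binomial 95% interval 94.9 to 99.98), the exception being the peak beside Hoxb4. Over the whole list the share was 41.5%. After LPS and nigericin 99 of 99 did so (interval 96.3 to 100), against 52.6% of that list. These intervals cover counting error only. H3K27me3 covered 89.1% of the Hox windows, and 100% of those of HoxC, where 46 of the untreated EZH2 peaks lie. An overlap of at least 1 base was therefore nearly given in advance, and the shares of the whole lists are not a like background. In the other direction 14 of 42 H3K27me3 peaks in the windows overlapped untreated EZH2, against 2.90% of the list. Peaks of the whole list were shorter, with a median of 727 bases against 1988, so this background is not like for like either. The 28 Hox peaks without EZH2 included the short peaks over Hoxa3, Hoxa4 and Hoxa5. The 2 H3K27ac peaks overlapped neither EZH2 nor H3K27me3.

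The Hox clusters took up a small part of each EZH2 list, 106 of 9771 peaks (1.08%) in untreated cells and 99 of 5128 (1.93%) after LPS and nigericin. The EZH2 lists were limited at a p of 0.01, so many of their peaks are weak. With a q of at most 0.05 the numbers were 60 of 1746 and 35 of 761. With a −log10 q of at least 5, untreated EZH2 was left at 20 of the 38 genes and EZH2 after nigericin at 4.

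LPS and nigericin were followed by fewer listed EZH2 bases in each cluster. The covered length was 36.9 and then 19.6 kb in HoxA, 24.3 and 19.9 kb in HoxB, 62.7 and 49.0 kb in HoxC, and 45.5 and 22.7 kb in HoxD. In all it was 169.4 and 111.2 kb, a ratio of 0.656, beside 0.515 for the whole lists. The number of peaks was nearly the same (a ratio of 0.934), whereas over the whole lists the ratio was 0.525. The mean fold in the windows was 3.36 and 3.11. Peak lengths depend on the depth of each library, which was not given, and the part of depth in these values was not tested.

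Most Hox sites were shared by both EZH2 libraries. Of the untreated peaks 74 of 106 (69.8%, interval 60.1 to 78.3) overlapped a nigericin peak, against 16.3% of the list, and of the nigericin peaks 82 of 99 (82.8%, 73.9 to 89.7) overlapped an untreated one, against 34.5%. The lists are not a like background, since EZH2 peaks were long and dense in the windows. Their median lengths were 977.5 bases untreated and 807 after nigericin, against 434 and 445 in the lists. They covered 38.1% and 25% of the windows, and overlap by placement alone was not tested. Over the 99 overlapping pairs, formed by these 74 untreated peaks and 84 nigericin peaks, of which some lie past the edge of a window, the median ratio of nigericin to untreated fold was 0.932 (quartiles 0.735 and 1.20), beside 0.880 over all 1912 pairs of the lists. Its direction was not stable: the median was 1.03 in the 34 pairs with a q of at most 0.05 in both lists, and 0.75 when counted in fragments instead of fold. In HoxC the median was 1.06 (quartiles 0.879 and 1.40, 42 pairs) and in HoxA 1.02 (0.681 and 1.26, 20 pairs). In HoxB it was 0.824 (0.728 and 1.00, 19 pairs) and in HoxD 0.719 (0.599 and 0.889, 18 pairs), where 2 of 18 pairs were higher after nigericin. The difference between clusters was not tested, since the pairs share peaks and libraries.

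**Figure D4:**
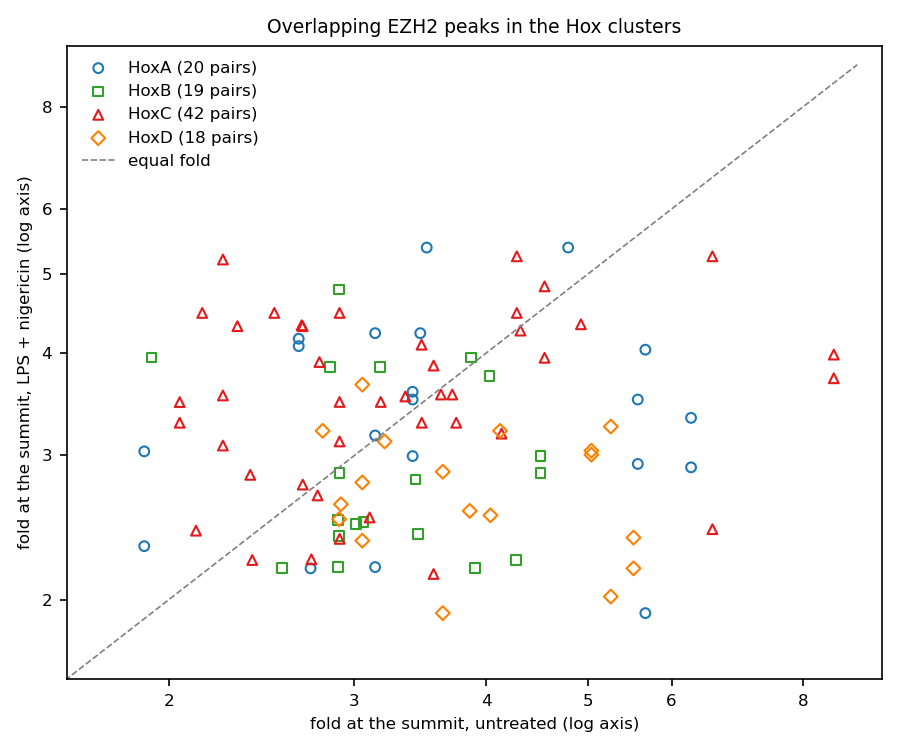
Fold at the summit of overlapping EZH2 peaks in the Hox windows, untreated on the x axis and LPS with nigericin on the y axis, both logarithmic, with 1 symbol per pair, coloured by cluster, and a dashed line of equal fold. HoxC symbols lie on both sides of the line, while 16 of the 18 HoxD symbols lie below it.

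The 5 untreated Hox peaks with the highest fold that had a nigericin counterpart were each set beside the peaks that overlap them. The Hoxc9 peak of 8.55-fold overlapped nigericin peaks of 3.98 and 3.73, and the Hoxc13 peak of 6.56 overlapped peaks of 5.25 and 2.44. The peak shared by Hoxa9 and Hoxa10 (6.26) overlapped peaks of 3.33 and 2.90, and the further Hoxa10 peak (5.67) peaks of 4.04 and 1.93. At Hoxa13 the untreated peak of 5.57 overlapped peaks of 3.51 and 2.93. All 10 of these nigericin peaks had the lower fold. The members were picked here for a high untreated value, so the lower values opposite them are a description only.

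The highest Hox peak after nigericin, 5.38-fold with 17 fragments, lay at another site of Hoxa13 and overlapped untreated peaks of 4.79 and 3.51. The pair with the highest ratio, 2.31, was beside Hoxc11, where a long untreated peak of 2.25 overlapped a nigericin peak of 5.20. Both were picked for a high nigericin value, so they too are a description only. With 1 library each, none of these values has an error from replicates.

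Of the peaks found in 1 EZH2 library only, 32 were untreated and 17 were from nigericin. With a q of at most 0.05, 11 of 60 untreated peaks (18.3%) had no counterpart, against 47.1% of the whole list, and 2 of 35 nigericin peaks (5.71%), against 25.5%. Since EZH2 peaks were longer and denser in the windows, these backgrounds too are not like for like. The leading untreated peak without a counterpart lay in Hoxd8 (5.62-fold, 20 fragments), where nigericin left no peak touching the gene and the highest within 5 kb was 3.25. The others were in or beside Hoxd3 (4.01), Hoxb8 (3.73 and, between Hoxb8 and Hoxb9, 3.45), Hoxd13 (3.61), Hoxd10 and Hoxd11 (3.59), Hoxc4 (3.58 at each of 2 peaks), Hoxa10 (3.52), between Hoxa7 and Hoxa9 (3.51), and Hoxc12 (3.47). The 2 nigericin peaks lay beside Hoxb13 (4.16) and in Hoxc6 (3.89). Per cluster these untreated peaks were 4 of 14 in HoxD, 3 of 22 in HoxC, 2 of 12 in HoxB and 2 of 12 in HoxA.

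p53 had no peak within 5 kb of any of the 38 Hox genes, against 4.64% of all genes. SIRT1, a deacetylase, had 70 peaks in the windows over its 4 libraries, resting on 3 to 8 fragments each. In Ezh2 wild-type cells it was found at 20 Hox genes (52.6%), against 53.2% of all genes and 69.1% of protein-coding genes. In Ezh2 knockout cells it was found at 14 (36.8%), which is above the 25.1% of all genes but below the 38.3% of protein-coding genes. In p53 wild-type cells it was found at 27 (71.1%), against 47.3% and 64.1%, and in p53 knockout cells at 11 (28.9%), against 47.9% and 65.0%. A spread of 20 to 27 genes between the 2 wild-type libraries gives the only measure of variation between SIRT1 libraries of like cells. Of their peaks in the windows, 1 of 20 (5.00%) and 1 of 23 (4.35%) overlapped the other's, near the 3.93% and 5.22% of the whole lists. The 1 SIRT1 peak with a q of at most 0.05 lay between Hoxc8 and Hoxc6 in Ezh2 knockout cells (chr15:102996329-102996692, 4.85-fold, 8 fragments).

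Promoters were counted as well. RefSeq promoters were matched for 22 of the 38 genes, 24 promoters in all. H3K27me3 lay over 22 of the 24, against 15.3% of all promoters, and the other two were those of Hoxb4 and Hoxa5. The Hoxa5 promoter fell in a break of 1252 bases and had no H3K27ac. Untreated EZH2 lay over 17, against 3.0%, EZH2 after nigericin over 10, against 1.21%, and H3K27ac over 1, against 11.1%. The Hox promoters held 4 to 45 CG with a median of 14.5, against a median of 7 over 32851 promoters. The 45 belonged to Hoxa13. Under untreated EZH2 the median was 15 for Hox promoters and 21 for all promoters. Without untreated EZH2 it was 14 over 7 Hox promoters and 7 over all promoters, so Hox promoters with and without EZH2 were alike in CG. The letters TAAT, the core that homeodomains bind, were searched on both strands (TAAT or ATTA) and found in 19 of the 24 (79.2%), against 58.0% of all promoters of this length.

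Around the Hox genes the non-coding genes of the clusters carried the same marks. Of 14 such genes 13 had H3K27me3 within 5 kb, 11 had untreated EZH2 and 12 had EZH2 after nigericin, beside 29.2%, 11.6% and 7.06% of all genes. These counts follow from where the genes lie and are not a separate result. Many of the peaks are those already counted for Hox genes, such as that at Mir196b, which is the peak shared by Hoxa9 and Hoxa10. By untreated EZH2 fold the highest were Mir196b (6.26), Hottip (5.74), a transcript of the 5′ end of HoxA, Hotair (4.55), a HoxC transcript, Mir196a-2 (4.31), and Haglr (4.04) and Mir196a-1 (4.03). The 14th, Mir10a, was the one with H3K27ac.

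The genes that work with Hox proteins were also read. Of 9 TALE cofactors, the homeodomain partners of Hox proteins, 5 (55.6%) had H3K27ac and 6 (66.7%) had H3K27me3, beside 25.5% and 29.2% of all genes. Meis1 had both, with an H3K27ac peak of 3.21-fold, H3K27me3 of 8.89 and untreated EZH2 of 3.83, and Meis3 had H3K27ac of 3.82 and H3K27me3 of 8.15. EZH2 was also found at Pknox2 (4.84) and Meis2 (3.74), which had no H3K27ac. Pbx2 had H3K27ac of 9.58 and no H3K27me3. Of 18 regulators of Hox transcription 12 (66.7%) had H3K27ac, and 6 (33.3%) had H3K27me3, which is near the share of all genes. Kmt2a, the trithorax methyltransferase that keeps Hox genes active, had H3K27ac of 4.32 and 1 H3K27me3 peak of 3.47. Rara and Rarg, retinoic acid receptor genes, had H3K27ac of 3.82 and 6.27 with H3K27me3 of 6.67 and 6.54. Of the Cdx genes, homeodomain activators of Hox genes in the embryo, all 3 had H3K27me3, and Cdx2 (3.58) and Cdx1 (3.53) had untreated EZH2.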

How the data were processed

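Peak lists of 9 libraries were used, 1 deposited list each, in the narrowPeak layout of 10 columns. The build is GRCm38/mm10 and the tools named are MACS2 and deepTools, per the submitters' processing notes, while the aligner and all versions are not stated there. The authors' deposited fold is a ratio, fragments plus 1 at the summit over background plus 1. The authors also deposited −log10 of each peak's p-value and q-value. The deposited score equals 10 times one of these, −log10 q for both histone marks and −log10 p elsewhere. Judged from the values, peaks of the histone marks were kept at q up to 0.05, and all others at p up to 0.01. Which input served which library is not given beyond the names.

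Peaks on 21 chromosomes were set against RefSeq gene bounds (GRCm38.p6, without strand or exons), with coordinates 1-based. Summit fragments were solved from fold and p with a Poisson model, and 100% of 319 Hox peaks gave whole numbers (tolerance 0.0001 in −log10 p). Read totals were not used. Shares carry exact binomial 95% intervals, for counting error only. Medians over pairs, which share peaks, are given with quartiles. Groups have 1 library, so there was no test. The scripts were tested on simulated peaks. Python 3.11.15, numpy 2.4.6, pandas 2.3.3, scipy 1.17.1 and matplotlib 3.10.9 were used.

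The Hox genes and the other gene lists were chosen with earlier results of these data known. Named in full were, per cluster, the peaks with the highest fold, each H3K27ac peak, EZH2 peaks with q of at most 0.05 found in 1 library, and genes without a peak. Genes of other lists were named where they had H3K27ac with H3K27me3, or EZH2, up to 6 per list by fold. Pbx2 and marker genes were named outside that rule. Alternatives were a q of at most 0.05, a −log10 q of at least 5, windows of 0 and 10 kb, the 5000 peaks with the highest −log10 p, 50% overlap, fragments in place of fold and protein-coding genes only. Some genes of the clusters and of the marker lists are not reported here.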

Additional observations from a re-analysis of the deposited data

How the results depend on the processing

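No paired analysis was possible because each group has 1 library. Of 140 values recomputed under other settings, 85 stayed within 1.5 times the reported count or coverage, or within the 95% interval of the reported share or median (for the median, from the order of its pairs), and 55 did not. The cause was not tested except where fewer peaks or shorter windows remain by construction. With q of at most 0.05 the windows held 60 untreated and 35 nigericin EZH2 peaks, and SIRT1 was left with 1 peak at 2 genes in Ezh2 knockout cells and 0 in its other libraries. With −log10 q of at least 5, untreated EZH2 had 16 peaks at 20 genes, nigericin EZH2 4 peaks at 4 genes, H3K27ac 1 peak and SIRT1 0 in each library. Untreated EZH2 then covered 20.6% of HoxA, 6.77% of HoxB, 6.10% of HoxC and 22.4% of HoxD. The higher share in HoxC therefore rests on its many weaker peaks, and at this threshold HoxA and HoxD lead. H3K27me3 coverage per cluster stayed within 1.5 times under each setting.

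Without flanks, untreated EZH2 had 68 peaks, H3K27ac 1 gene, and SIRT1 13, 3, 11 and 7 genes (wild type and knockout of Ezh2, then wild type and knockout of p53), with 5 peaks in Ezh2 knockout and 15 in p53 wild type. With 10 kb, SIRT1 in p53 knockout cells reached 19 genes. Among the 5000 peaks with the highest −log10 p, H3K27me3 had 18 peaks in the windows, H3K27ac 0 peaks and 0 genes, and SIRT1 2, 2, 3 and 0 peaks at 2, 4, 4 and 0 genes in the same order. The share of untreated EZH2 peaks in H3K27me3 was 100% at both q thresholds. The share of untreated peaks with a nigericin peak was 81.7% at q of at most 0.05 and 93.8% at −log10 q of at least 5, and that of nigericin peaks with an untreated one 94.3% and 100%. The median EZH2 ratio of 0.932 was 0.75 in fragments and 1.03 where both peaks of a pair passed a q of 0.05. Over protein-coding genes the background for SIRT1 in Ezh2 knockout cells was 38.3%.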

Other observations

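Of the 13 genes that border the Hox clusters, 9 (69.2%) had H3K27me3 within 5 kb, against 29.2% of all genes, 7 (53.8%) untreated EZH2, against 11.6%, and 6 (46.2%) EZH2 after LPS and nigericin, against 7.06%. H3K27ac was at 4 (30.8%), near the 25.5% of all genes. Evx2, a homeobox gene next to Hoxd13, lay in the same 66-kb H3K27me3 peak as the posterior HoxD genes and had EZH2 of 5.31 in untreated cells and 3.39 after nigericin. Evx1, its counterpart beside Hoxa13, had H3K27me3 of 14.1 and EZH2 of 4.01 and 4.49. Smug1, a DNA repair gene next to HoxC, had H3K27me3 of 9.47 and EZH2 of 2.93 and 2.52. Skap1, an adaptor gene beyond Hoxb1, had 86 H3K27me3 peaks and 2 H3K27ac peaks within its window, the latter up to 4.53-fold. H3K27ac without H3K27me3 was found at Skap2 (2.39), Hibadh (3.86) and Snx11 (5.01).

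Of 17 other homeobox genes outside the clusters, 17 had H3K27me3, against 29.2% of all genes, and 0 had H3K27ac, against 25.5%. Untreated EZH2 was found at 15, against 11.6%, and EZH2 after nigericin at 17, against 7.06%. By untreated EZH2 fold the highest were Dlx2 (5.31), Dlx1 (5.10), Dlx6 (5.08), Nkx2-5 (4.85), En1 (4.54) and Mnx1 (3.98). Msx2 had 3.98 as well. Meox1 and Meox2 were the 2 without untreated EZH2.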
